A study of Mus musculus with 8 samples.

Results

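Interstitial fibro-adipogenic progenitor (FAP) nuclei were picked by their raw UMI counts from the 4 10x libraries of mouse gastrocnemius, a calf muscle, and made up 3079 of the 47059 nuclei retained there, or 6.54%. A UMI is a tag by which each captured RNA molecule is counted once. A nucleus was a member when Col6a6, Bmper, Mme and Smoc2 together had at least 3 UMIs with at least 2 of the 4 genes detected, when that sum exceeded the sum of Pi16, Dpp4, Efemp1 and Adgrd1, when Pdgfra had at least 1 UMI, and when Pecam1, Ptprc and Pax7 had none. Swapping the roles of the 2 gene sums gave 847 nuclei of the neighbouring adventitial type, which serve as the comparison, and nuclei outside both kinds that lacked Pdgfra or carried an exclusion gene are called other nuclei. Pdgfra nuclei that met neither sum are in none of the 3 sets. All mice were wild-type C57BL/6. Young mice were 3 months old and Old mice, labelled as aging, were 20 months old, Running mice had trained on a treadmill for 2 months from the age of 11 months, and Sedentary mice were their untrained controls. Each group had 1 10x library, the number of animals behind a library is not given in the sources used here, and a difference between 2 groups therefore has no replicate check. A second library per group, made on another droplet system, held only 1, 2, 4 and 1 members (Old, Young, Running, Sedentary), fewer than the 20 needed, and no second-set values are given.

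FAPs are the resident mesenchymal cells of skeletal muscle, marked by the receptor Pdgfra, and they make most of the matrix around the fibres. The interstitial kind lies between the fibres of a fascicle, next to their basement membranes, whereas the adventitial kind, marked by Pi16 and Dpp4, lies around larger vessels and in connective tissue sheaths. Both can form fat or fibrous tissue when muscle regeneration fails, and both secrete factors that act on muscle stem cells, nerve and vessels.

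Values are given in the order Old, Young, Running and Sedentary unless the groups are named. The members held 3325064, 2970791, 2615942 and 210905 UMIs, with medians of 2411, 2981, 2296.5 and 1673.5 UMIs per nucleus. The Sedentary library stood apart, with 108 members, the shallowest nuclei and the smallest sums, so any value that rests on it is the least precise. No barcode was shared between members of different libraries. Scrublet, a doublet caller, placed 5.56% to 11.4% of the members of a library in its highest-scoring 6%, and these nuclei were kept. CPM is the count of a gene scaled to a common total of UMIs (counts per 1e6) in the summed nuclei of a library, without mitochondrial and ribosomal protein genes, and intervals are exact 95% intervals that cover counting error only.

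Interstitial nuclei were 9.93% of retained nuclei in Old (1161 of 11686, Clopper-Pearson interval 9.40 to 10.5) and 7.49% in Young (884 of 11795, 7.03 to 7.98). They were 7.13% in Running (926 of 12991, 6.69 to 7.58) and 1.02% in Sedentary (108 of 10587, 0.838 to 1.23). The Old share lay above that of Young and the Sedentary share far below the other 3, in each case beyond counting error. The rule counts UMIs, and the median depth of other nuclei was 2921, 3001, 2908 and 1675 UMIs. After every nucleus was thinned to 1000 UMIs before the rule was applied, the shares became 4.44% (Old), 3.05% (Young), 3.48% (Running) and 0.518% (Sedentary), so that the outer order held while Young and Running changed places. Among nuclei that passed either FAP rule, interstitial nuclei made up 74.2% (71.9 to 76.3), 80.9% (78.4 to 83.2), 81.7% (79.4 to 83.9) and 80% (72.3 to 86.4) across Old, Young, Running and Sedentary. The balance of the 2 kinds was thus lower on the interstitial side in Old than in Young and Running, and the Sedentary interval overlapped all 3. Among all Pdgfra nuclei without the 3 exclusion genes, the shares were 49.9% (47.9 to 52.0), 59.9% (57.4 to 62.4), 51.1% (48.8 to 53.4) and 30.4% (25.7 to 35.5), so that over this wider set Sedentary lay below the other 3 and the intervals of Old and Running overlapped. With 1 library per group these shares carry no test. The rule genes were also detected in other nuclei, and for Smoc2, Bmper and Mme more often in Old than in Young. At 1000 UMIs, Smoc2 was detected in 20.7% of other nuclei in Old and 11.2% in Young. Bmper had 7.32% and 3.04%, Mme 3.65% and 1.58%, and Col6a6 1.28% and 1.29%. The part of such RNA in the interstitial shares, with or without thinning, was not tested.

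**Figure D1:**
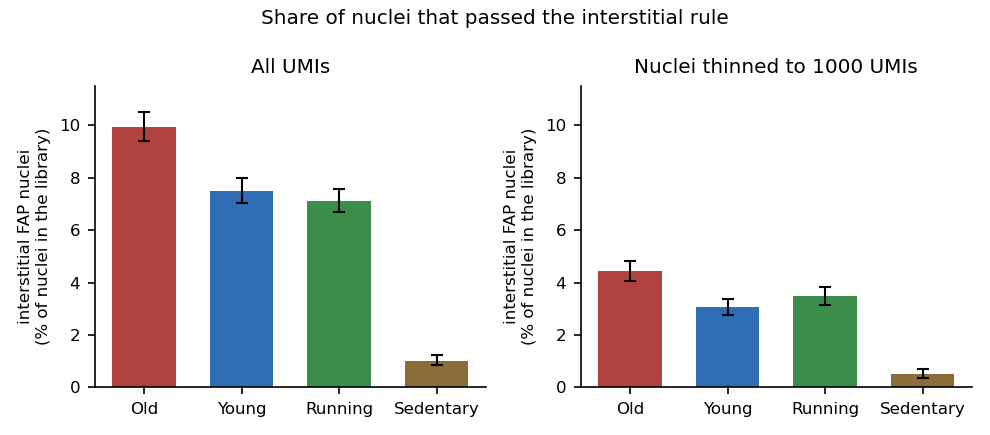
Share of interstitial FAP nuclei among all nuclei of each 10x library (y axis, percent), with all UMIs on the left and after thinning to 1000 UMIs per nucleus on the right; bars are single libraries and error bars are 95% Clopper-Pearson intervals. The share runs from 1.02% in Sedentary to 9.93% in Old with all UMIs and from 0.518% to 4.44% after thinning.

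The rule genes describe the members and are given without a test. Smoc2, a secreted calcium-binding matrix protein (chromosome 17, 14279506 to 14404790 on GRCm38), was often detected with Bmper, a BMP-binding secreted protein, in each library. The pair Bmper and Smoc2 alone accounted for 37.0%, 26.5%, 24.7% and 34.3% of members. All 4 rule genes were detected in 12.0%, 22.6%, 18.5% and 7.41%, without thinning, and Young members were also the deepest. At 1000 UMIs Col6a6 was detected in 13.1%, 28.7%, 34.9% and 12.2% of members and Bmper in 65.9%, 52.5%, 52.9% and 63.3%. The median sum of the 4 genes was 9, 12, 8 and 6 UMIs. At the edge of the rule, 75, 48, 60 and 16 members had exactly 3 UMIs in Old, Young, Running and Sedentary, and 47, 20, 46 and 7 nuclei that met the other conditions had 2.

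To see how far the label rests on any 1 gene, each rule gene was read in nuclei chosen without it. Col6a6, a chain of type VI collagen, then had 130, 361, 406 and 141 CPM in interstitial nuclei against 41.1, 106, 77.1 and 48.2 in adventitial nuclei. Mme, a membrane metallopeptidase, had 319, 359, 272 and 471 CPM against 72.2, 23.8, 55.2 and 62.9. Each of the 4 genes was higher in interstitial than in adventitial nuclei of each library in this way. Fap, the only listed marker that the rule did not use, encodes fibroblast activation protein. At 1000 UMIs it was detected in 62.5%, 64.4%, 65.9% and 64.4% of members and in 51.0%, 61.5%, 57.2% and 60.9% of adventitial nuclei. Unthinned, those shares were 82.8%, 86.2%, 82.6% and 75.9% of members and 82.9%, 85.6%, 86.5% and 74.1% of adventitial nuclei. In other nuclei, the background for such a share, it was detected in 10.8%, 6.03%, 6.34% and 3.95% at 1000 UMIs (median depths of 2921, 3001, 2908 and 1675 UMIs before thinning). Its shares in both FAP kinds lay far above background, and its log2 fold change between the 2 kinds, 0.29 (SE 0.11), did not pass the test described next (edgeR adjusted p 0.10, 4 of 4 libraries higher).

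Most markers of other cells were lower in the members than in other nuclei. The 13 general FAP markers summed to 24675, 18804, 17832 and 15014 CPM in Old, Young, Running and Sedentary members, against 3124, 1373, 1179 and 785 in other nuclei. The 10 myonuclear markers were the main foreign signal, at 13564, 8396, 18082 and 13367 CPM in members and 59384 to 73070 CPM in other nuclei. All 10 had UMIs in Old and Sedentary members, and in Young and Running 9 had, with Myh7 at 0. The 6 endothelial markers summed to 14.2 to 38.3 CPM in members and 159 to 243 in other nuclei, with Pecam1 at 0 by rule. The 6 macrophage markers summed to 72.5 CPM in Old members and 15.0 to 43.1 in the other 3 libraries, against 119 to 474 in other nuclei, with Ptprc at 0 by rule. The 7 mural markers gave 242 to 252 CPM against 367 to 600 in other nuclei. The 5 muscle stem cell markers gave 38.4, 33.9, 27.3 and 57.5 CPM in members and 79.6, 134, 68.7 and 37.7 in other nuclei, so that Sedentary members stood higher, with Pax7 at 0 by rule. The 6 tenocyte markers gave 99.6, 46.4, 50.05 and 57.5 CPM in members against 31.4, 68.7, 34.8 and 15.1 in other nuclei, with the tendon factor Scx at 0 in all 4 libraries. The 6 adipocyte markers gave 230, 95.9, 149 and 168 CPM, against 454 to 613 in other nuclei, with Adipoq at 0 in Sedentary. The 5 Schwann cell markers were higher in members of each library, at 171, 89.5, 137 and 192 CPM in members and 20.9 to 61.9 in other nuclei, although the defining factor Sox10 was at 0 in Young, Running and Sedentary. The T and B cell, lymphatic and myotendinous lists stayed under 50 CPM in members of each library. The part of this RNA in the results was not tested, except where a value without the members richest in it is given.

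The question of what sets interstitial nuclei apart from adventitial ones was asked over 4 libraries, each giving 1 sum of counts per kind. Of 10066 genes tested, 1571 (15.6%) differed (edgeR quasi-likelihood F-test, library as a block, Benjamini-Hochberg adjusted p under 0.05), with 807 (8.02%) higher and 764 (7.59%) lower in interstitial nuclei and a median log2 fold change of 0.02. The 12 genes that either rule used were left out, although the nuclei are those the rule chose. The count was 584 without the library term, 891 after thinning to 1000 UMIs and 1041 without the Young library.

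Among the 10 named increases, 4 encode secreted or matrix proteins. Pappa (chromosome 4, 65124174 to 65357509), a protease that frees insulin-like growth factors from their binding proteins, had 217, 266, 298 and 158 CPM in Old, Young, Running and Sedentary interstitial nuclei and 19.4, 13.1, 31.3 and 16.3 CPM in adventitial nuclei. The groups did not overlap, and its log2 fold change was 3.61 (SE 0.18, edgeR adjusted p 4.0e-13). Col15a1 (chromosome 4, 47208161 to 47313167), a collagen that links basement membranes to the matrix beneath, had 416, 700, 651 and 493 CPM against 59.1, 76.4, 56.7 and 16.3, a log2 fold change of 3.17 (SE 0.15). Fbln7, a fibulin of the extracellular matrix, had 44.8, 49.8, 48.1 and 9.58 CPM against 0.778, 5.46, 1.49 and 0, the last from 2 UMIs against none. Cxcl14 (chromosome 13, 56288643 to 56296551), a chemokine, had 152, 209, 146 and 134 CPM against 19.4, 14.2, 19.4 and 0, a log2 fold change of 3.25 (SE 0.20). These genes were higher in every library, which was a condition of being named.

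The other 6 increases were of channels, a receptor and less studied transcripts. Trpm6 (chromosome 19, 18749983 to 18892511), a magnesium channel fused to a kinase, had 78.9, 86.8, 93.2 and 129 CPM against 7.0, 4.37, 0 and 0 (log2 fold change 4.25, SE 0.31). Kcnb2, a voltage-gated potassium channel, had 3.13 (SE 0.27), and Plxnc1, a semaphorin receptor, 3.16 (SE 0.35). Gm30075 (a long noncoding RNA), D630003M21Rik and Gm8369 had 4.36, 3.55 and 2.98. The 10 named decreases included Rorb (chromosome 19, 18930605 to 19111196), a nuclear receptor whose gene lies 38093 bases from Trpm6. It had 18.3, 20, 17.3 and 9.58 CPM in interstitial and 311, 571, 409 and 147 CPM in adventitial nuclei, a log2 fold change of -4.50 (SE 0.15), opposite to its neighbour.

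Sema3e, a secreted semaphorin, had a log2 fold change of -4.79 (SE 0.24), Efna5, an ephrin, -3.67 (SE 0.15), and Opcml (chromosome 9, 27790775 to 28925410), a cell adhesion molecule, -3.90 (SE 0.16), with 107, 271, 194 and 230 CPM against 2409, 3410, 2736 and 2516. Cmah (chromosome 13, 24327404 to 24477377), which makes the sialic acid Neu5Gc, had the most negative value of the 10, at -5.27 (SE 0.21), with 13.1, 4.74, 3.85 and 9.58 CPM against 320, 343, 200 and 180. Without thinning it was detected in 1.98% of Old members (median depth 2411 UMIs) and 7.31% of other Old nuclei (2921 UMIs), so its level in members is at background. Pdgfc, a growth factor that activates the Pdgfra receptor, had -3.77 (SE 0.24). Car8, Smpd3, Ano3 and Kcnk5 had between -4.55 and -3.88. Of the adventitial markers that no rule used, Sema3c, Cd55, Anxa3, Creb5 and Cmah were each lower, from -2.20 for Cd55 to -5.27 for Cmah.

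**Figure D2:**
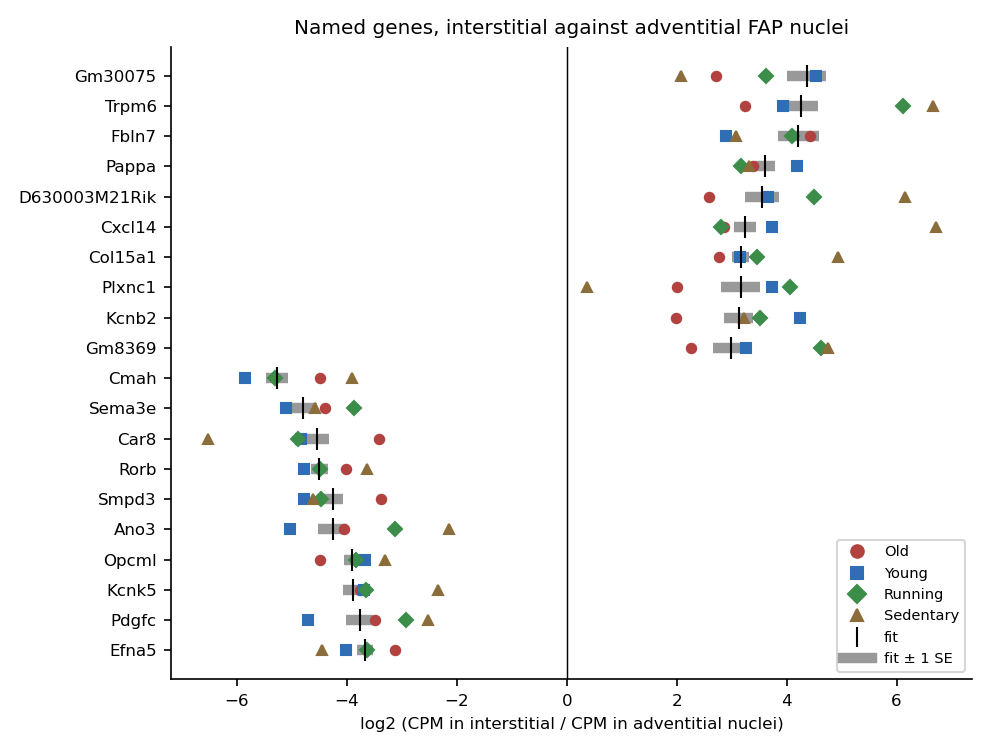
Log2 ratio of CPM between interstitial and adventitial FAP nuclei (x axis) for the 10 named genes with the largest increase and the 10 with the largest decrease; coloured symbols are the 4 libraries (with a prior count of 2 added, which bounds values where one kind had no UMI), black ticks the fitted value and grey bars 1 SE. The symbols of each gene lie on 1 side of 0, which was a condition of being named, and those of Sedentary scatter most.

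Basement membrane genes were higher as a group. Of 20 listed genes 19 were tested, 13 were higher and 1 lower in interstitial nuclei, with a median log2 fold change of 1.11 against 0.02 over all genes, and with 8.02% and 7.59% of all genes called in these directions. All 6 chains of type IV collagen, the network-forming collagen of basement membranes, were among the 13. Col4a1 had 602, 582, 728 and 642 CPM in Old, Young, Running and Sedentary interstitial nuclei and 240, 203, 248 and 131 CPM in adventitial nuclei, with no overlap (log2 fold change 1.51, SE 0.13, edgeR adjusted p 3.5e-09). Col4a2 had 335, 379, 427 and 383 CPM against 135, 171, 149 and 114 (1.32, SE 0.12). Col4a3, Col4a4, Col4a5 and Col4a6 had fitted log2 fold changes of 2.20, 1.99, 1.46 and 1.90. In Sedentary, Col4a3 and Col4a6 went the other way, on 4 and 7 UMIs in interstitial and 2 and 6 in adventitial nuclei.

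The 6 type IV collagen genes lie in 3 head-to-head pairs, and their promoters are shown because the members of each pair rose together. On GRCm38 with GENCODE vM21, the annotated starts of Col4a1 and Col4a2 on chromosome 8 are 21 bases apart, inside a stretch where the 2 genes overlap, those of Col4a4 and Col4a3 on chromosome 1 are 72 bases apart, and those of Col4a6 and Col4a5 on chromosome X are 1309 bases apart. RefSeq windows of 300 bases (250 before and 50 after the start, GRCm38.p6) were held for 5 of the 6 genes. The first is chr8:11312777-11313076 on the minus strand, the second chr8:11312555-11312854 on the plus strand, the third chr1:82586800-82587099 on the minus strand, the fourth chrX:141475169-141475468 on the plus strand and the fifth chrX:141474027-141474326 on the minus strand. The Col4a1 and Col4a2 windows share 78 bases, read on opposite strands, and the Col4a4 window also holds the annotated start of Col4a3. Capitals mark a GC box (GGGCGG or its reverse complement CCGCCC) or a CCAAT box (CCAAT or ATTGG).
Col4a1: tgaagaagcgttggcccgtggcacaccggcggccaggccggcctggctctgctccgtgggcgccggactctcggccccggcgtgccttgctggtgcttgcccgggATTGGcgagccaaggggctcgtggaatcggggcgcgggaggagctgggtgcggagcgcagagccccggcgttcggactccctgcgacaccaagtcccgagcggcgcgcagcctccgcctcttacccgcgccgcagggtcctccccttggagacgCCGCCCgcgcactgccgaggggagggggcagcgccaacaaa
Col4a2: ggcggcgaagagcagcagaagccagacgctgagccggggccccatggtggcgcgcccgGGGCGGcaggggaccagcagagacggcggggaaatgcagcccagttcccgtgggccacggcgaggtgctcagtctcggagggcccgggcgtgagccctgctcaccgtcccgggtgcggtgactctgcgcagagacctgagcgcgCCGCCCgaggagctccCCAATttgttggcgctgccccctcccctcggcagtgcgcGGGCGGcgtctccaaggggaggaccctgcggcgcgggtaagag
Col4a4: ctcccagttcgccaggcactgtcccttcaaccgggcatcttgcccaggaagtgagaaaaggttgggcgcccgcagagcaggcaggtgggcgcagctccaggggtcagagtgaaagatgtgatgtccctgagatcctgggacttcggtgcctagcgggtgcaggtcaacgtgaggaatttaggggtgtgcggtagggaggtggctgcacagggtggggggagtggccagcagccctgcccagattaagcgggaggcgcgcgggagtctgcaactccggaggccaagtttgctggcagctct
Col4a5: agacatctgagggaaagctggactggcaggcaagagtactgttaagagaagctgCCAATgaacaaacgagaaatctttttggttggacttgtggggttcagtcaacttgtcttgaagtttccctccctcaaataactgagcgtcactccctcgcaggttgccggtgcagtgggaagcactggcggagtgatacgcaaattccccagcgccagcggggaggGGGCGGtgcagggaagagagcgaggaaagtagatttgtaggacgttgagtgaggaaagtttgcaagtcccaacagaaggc
Col4a6: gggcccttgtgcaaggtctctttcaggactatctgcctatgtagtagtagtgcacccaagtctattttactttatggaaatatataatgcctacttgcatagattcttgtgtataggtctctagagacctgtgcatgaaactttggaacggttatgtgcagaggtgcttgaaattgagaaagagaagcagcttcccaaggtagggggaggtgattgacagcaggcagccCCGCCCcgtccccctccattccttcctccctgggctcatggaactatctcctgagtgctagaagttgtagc
A GC box was found 1 time in the Col4a1 window, 3 times in that of Col4a2, and 1 time each in those of Col4a5 and Col4a6. A CCAAT box was found 1 time each in the windows of Col4a1, Col4a2 and Col4a5. No window held TATAAA on either strand, and the Col4a4 window held none of these letters. Of all 32851 RefSeq windows of this length, 35.7% held a GC box, 37.4% a CCAAT box and 13.6% a TATAAA, and matches of different motifs did not overlap here. These matches describe letters only.

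Laminin and its partners followed in part. Lama2, the laminin chain that anchors muscle fibres, had 2697, 3321, 3314 and 3260 CPM against 1402, 1567, 1785 and 1291, a log2 fold change of 1.05 (SE 0.13). Lamb1 (1.17), the perlecan gene Hspg2 (1.07), the nidogen gene Nid2 (2.0), Col18a1 (0.97) and Smoc1 (1.11) were higher as well. Nid1 was lower at -0.42 (SE 0.13), and in Sedentary it was higher, with 364 against 261 CPM. Agrn, Lamc1, Lama4, Lama5 and Lamb2 did not pass the test, with values between -0.15 and 0.37, and Npnt was too low to be tested.

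**Figure D3:**
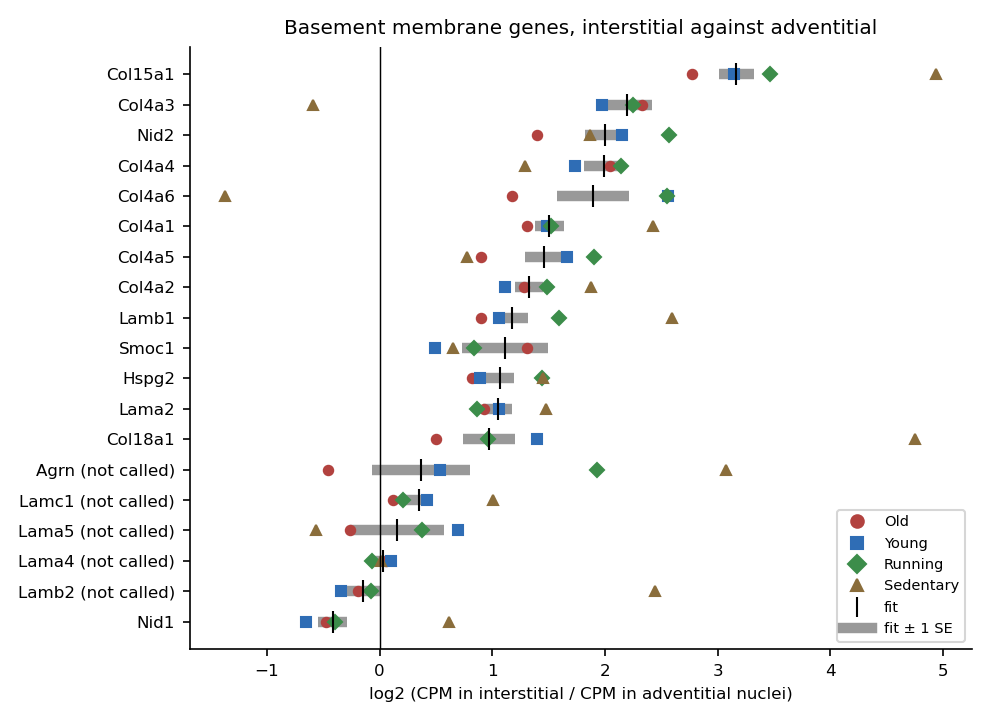
Log2 ratio of CPM between interstitial and adventitial FAP nuclei (x axis) for the 19 tested basement membrane genes, with the 4 libraries as coloured symbols (prior count of 2), the fitted value as a black tick and 1 SE as a grey bar. The 13 genes from Col15a1 to Col18a1 were called higher, and the Sedentary symbols of Col4a3 and Col4a6 lie below 0.

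Other matrix lists divided, where 8.02% of all genes were called higher and 7.59% lower. Of the type VI collagen chains, which surround fibres and bind their basement membrane, all 3 tested were higher, Col6a1 at 0.39, Col6a2 at 0.51 and Col6a3 at 1.01. Of 6 fibrillar collagen genes tested, Col5a3 was higher (0.92, SE 0.13), and Col1a1 and Col3a1 had 0.05 (SE 0.15) and -0.07 (SE 0.13), which did not pass. Of 9 proteoglycan genes 5 were higher and 3 lower, with the collagen-binding proteoglycans Lum (1.02), Dcn (0.72) and Podn (1.19) higher and Aspn (-2.22) and Vcan (-0.67) lower. Of 13 elastic fibre genes 3 were higher and 4 lower, the lower ones being Eln (-0.60), Fbn1 (-1.49), Mfap5 (-1.47) and Ltbp1 (-1.53), which build elastic microfibrils. Fn1, fibronectin, was lower at -2.54 (SE 0.13) and the fibril-associated Col14a1 at -2.85 (SE 0.15). The medians of these lists were 0.51, 0.16, 0.60 and 0.04 in the order given, against 0.02 over all genes. Of 16 genes for collagen processing 5 were higher and 3 lower, and of 16 for proteases and their inhibitors 3 and 4.

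Secreted signals and their receptors also split by kind, where 8.02% of all genes were called higher and 7.59% lower, with a median of 0.02. In the BMP and TGF-beta list, 8 of 33 tested genes were higher and 5 lower (median 0.13). Bmp5 was higher at 2.04 (SE 0.16), with 117, 986, 1023 and 493 CPM against 37.3, 212, 188 and 278, and the ligand Bmp4 at 1.61 (SE 0.20), while Bmp6 was lower at -2.14 (SE 0.18). The inhibitory Smad6 and Smad7 were higher at 0.99 and 0.69. In the Wnt list, 5 of 18 were higher and 4 lower (median 0.04), with the Wnt inhibitor Dkk2 at 0.38 and the ligand Wnt10b at -5.15 (SE 0.36). Of 25 trophic factors, 10 were higher and 6 lower (median -0.13). Ntf3, neurotrophin-3, had 270, 302, 279 and 244 CPM against 76.2, 99.3, 136 and 49.0 (1.51, SE 0.15). Igf1 was higher in the fit at 0.65 (SE 0.17) and in Young, Running and Sedentary, but not in Old, with 171 against 191 CPM. Fgf2 and Fgf10 were lower at -1.76 and -0.97.

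Of 22 growth factor and hormone receptors tested, 8 were higher and 2 lower (median 0.32), with 8.02% of all genes called higher and 7.59% lower. Lepr, the leptin receptor, had 78.2, 83.4, 91.2 and 268 CPM against 17.9, 17.5, 10.4 and 16.3, a log2 fold change of 2.45 (SE 0.21). Adra1a, an adrenergic receptor, had 2.37 (SE 0.19), the GDNF co-receptor Gfra1 2.09 (SE 0.16) and the growth hormone receptor Ghr 0.72 (SE 0.14), the last higher in 3 of 4 libraries. The neurotrophin receptor Ntrk3 was lower at -2.92 (SE 0.20). Of 27 mesenchymal transcription factors 8 were higher and 5 lower (median -0.06), with the homeobox factor Meox1 higher at 4.03 (SE 0.50), on 44, 92, 88 and 5 UMIs against 0, 1, 3 and 0.

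Of 17 adipogenic regulators 8 were higher and 4 lower (median 0.48), with 8.02% of all genes called higher and 7.59% lower. Pparg, the master regulator of fat cell formation, had 1.27 (SE 0.19, higher in 3 of 4 libraries), lipoprotein lipase Lpl 1.53 (SE 0.14) and the glucocorticoid-activating enzyme Hsd11b1 2.07 (SE 0.23), whereas Ebf1, Ebf2, Zfp423 and Klf4 were lower. The adipocyte markers Plin1, Pde3b and Acsl1 were also called higher, and the part of adipocyte RNA in this was not tested. The Schwann marker Cdh19 (2.04) and the muscle stem cell marker Vcam1 (2.26), each the only gene of its list tested, were called higher. So were the mural markers Notch3 and Pdgfrb. Of 9 chemokine and cytokine genes 5 were higher and 2 lower (median 0.66), with the receptors Lifr (1.63), Osmr (1.10) and Il1r1 (0.87) and the chemokine Cxcl12 (0.66) higher and Il33 (-1.15) lower. Of 11 complement genes C3, C7 and Cd55 were lower and edgeR called 0 higher, with 3 higher at an unadjusted p under 0.05 and 0 called higher by DESeq2. Of 19 glycolysis genes and 14 lactylation enzymes, lists drawn from the study's theme, edgeR and DESeq2 each called 0, with 1 and 0 at an unadjusted p under 0.05 in edgeR and medians of 0.11 and 0.08. Of the 10 myonuclear markers Ckm was called, at 0.35, and the list summed to 10223, 6852, 16567 and 22675 CPM in adventitial nuclei, above the members in Sedentary and below them in the other 3 libraries.

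Within interstitial nuclei, Old was set against Young to ask what differed with age. The median mitochondrial share of members, a sign of RNA quality, was 0.608% in Old and 0.179% in Young, with 0.314% and 0.406% in Running and Sedentary. The limb-position genes Tbx5 (1 UMI in Old, 71 in Young) and Isl1 (68 and 0) also moved with this contrast, so that age cannot be told apart from a difference in the tissue taken, and the part of either in the ratios was not tested. Of 10275 genes with at least 50 UMIs over both libraries, 908 (8.84%) had a log2 ratio at or past 1 in size, 638 (6.21%) higher and 270 (2.63%) lower in Old, with a median log2 ratio of 0.04. With TMM scaling these were 524 and 337 with a median of -0.05. No test is possible with 1 library per group, and such a ratio compares 2 libraries.

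Of 6 fibrillar collagens compared, 3 were past the fold, all lower in Old, where 2.63% of all genes were, and the median was -1.18. Col1a1 (chromosome 11, 94936224 to 94953042), a chain of type I collagen, had 153 CPM in Old and 572 in Young, with 200 and 182 in Running and Sedentary, a log2 ratio of -1.90 between Old and Young (interval -2.04 to -1.75). Col3a1, type III collagen, had 538, 1734, 1005 and 493 CPM, a ratio of -1.69 (-1.77 to -1.61), and Col1a2 had -1.64. Young stood above the other 3 libraries for both genes. In adventitial nuclei the ratios were -2.52 for Col1a1 and -1.93 for Col3a1. The rule gene Col6a6 had 140 CPM in Old and 389 in Young, a ratio of -1.48, given as a description. Col12a1 and Col14a1, which decorate fibrils, had -2.23 and -1.56. Of 18 basement membrane genes, 3 were past the fold higher (Lamb2, Agrn and Smoc1) and 1 lower (Col4a6), with a median of -0.14. Over all genes 6.21% were past the fold higher, with a median of 0.04.

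Growth and patterning signals differed too. Bmp5 (chromosome 9, 75775364 to 75900310), a bone morphogenetic protein, had 117 CPM in Old and 986 in Young, with 1023 and 493 in Running and Sedentary, a log2 ratio of -3.07 (-3.23 to -2.92), and -2.50 in adventitial nuclei. In all, 1 of 34 BMP and TGF-beta genes was past the fold higher (Bmp6, 1.37) and 4 lower, among them Bmp5, Gdf10 (-1.78) and Chrdl1 (-1.85). Of 25 trophic factors 2 were higher and 6 lower. Medians were -0.21 for the BMP and TGF-beta list and -0.20 for the trophic list. Over all genes 6.21% were past the fold higher and 2.63% lower, with a median of 0.04. Igf1, insulin-like growth factor 1, had 171, 483, 268 and 249 CPM, a ratio of -1.49 (-1.64 to -1.35), and -0.32 (-0.59 to -0.05) in adventitial nuclei. Its binding protein Igfbp5 had -2.11 and the fibroblast growth factor Fgf7 -1.02. Fgf10 went the other way, with 156 CPM in Old and 30.8 in Young, beside 42.7 and 33.5 in Running and Sedentary, a ratio of 2.34 (2.02 to 2.68).

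Frmpd4 (chromosome X, 167471309 to 168577231), a scaffold protein of synapses, differed by more. It had 33.5 CPM in Old and 1220 in Young, with 954 and 259 in Running and Sedentary, a ratio of -5.19 (-5.47 to -4.91) between Old and Young. In Old it was detected in 4.05% of members, against 3.64% of other nuclei (median depths 2411 and 2921 UMIs), a share at the level of background. In adventitial nuclei the ratio was -1.79. Epha3, an ephrin receptor, had -2.95, the semaphorin Sema3d -3.65, Fam155a -3.70, and the noncoding Gm30075 and Gm26535 -3.05 and -3.11. Tbx5, a T-box transcription factor, had 1 UMI in Old and 71 in Young (-6.30, interval -11.63 to -3.78).

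On the higher side in Old, Grik2, a glutamate receptor subunit, had 151 CPM against 6.78, a ratio of 4.48 (3.83 to 5.20). Slit2, a guidance cue, had 111 against 13.6 CPM (3.04), Pcdh17, a protocadherin, 4.06, the transporter Slc6a7 3.68 and the noncoding Dio3os 2.88. Isl1, a LIM homeobox factor, had 68 UMIs in Old and none in Young, Running or Sedentary, a log2 ratio of at least 4.35 when 3 UMIs are allowed in Young. It was spread over 59 nuclei with at most 2 UMIs in any of them. The immunoglobulin genes Igkc and Ighm ranked first, at 7.27 and 4.90, but 1 nucleus of 5547 UMIs held 585 of the 688 Igkc and 908 of the 966 Ighm UMIs of Old members. Without that nucleus the log2 ratios were 4.53 for Igkc and 0.85 for Ighm. Igkc was also higher in other nuclei of Old, at 88.3 CPM against 6.1 in Young.

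Of 11 complement genes 4 were past the fold higher in Old and 1 lower, with a median of 0.62, where 6.21% of all genes were past it higher and 2.63% lower. C3, the central complement component, had 575 CPM in Old and 119 in Young, with 336 and 230 in Running and Sedentary (2.27, interval 2.11 to 2.44), and in other nuclei 89.5 against 24.3 CPM in Old and Young. C1s1, C1ra and Cfb had 1.01, 1.16 and 1.13, and C2 had -1.72. Of 20 adipogenic and lipid genes 4 were past the fold higher and 1 lower (median 0.37, with 12 above 0), with Hsd11b1 at 1.18 and Fmo2 at 1.32. Fabp4, a fatty acid-binding protein, had 135 against 14.9 CPM (3.17), while other nuclei had 252 against 68.3 CPM, and Cd36 had 1.79. The adipocyte markers moved with these 2 genes, at 230 CPM in Old and 95.9 in Young members, and their part was not tested. The 9 adventitial markers summed to 1575 CPM in Old and 1342 in Young members. Among them Efemp1 had 1.86 and Pi16 1.12, both used by the rule, and Anxa3 1.21 and Cmah 1.46, the last at background, whereas Sema3c had -0.02, Creb5 -0.21, Cd55 0.30, Adgrd1 0.20 and Dpp4 0.77.

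Other lists also held genes past the fold between Old and Young. Over all genes 6.21% were past it higher and 2.63% lower, with a median of 0.04. Of 10 chemokine and cytokine genes Ccl2 (2.77) and Lifr (1.07) were higher (list median 0.29). Of 11 fibroblast activation genes Ccn2 (2.58) and Adam12 (1.19) were higher, with a median of 0.60. Of 13 interferon and antigen presentation genes Iigp1 and Gbp2 were lower (median -0.57), and of 8 cell cycle arrest genes Ccnd2 was lower at -2.53 (median 0.02). Of 20 glycolysis genes Ldhb and Pdk4 were higher, at 1.71 and 1.80 (median 0.23), and of 14 lactylation enzymes none was past the fold (median 0.11).

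**Figure D4:**
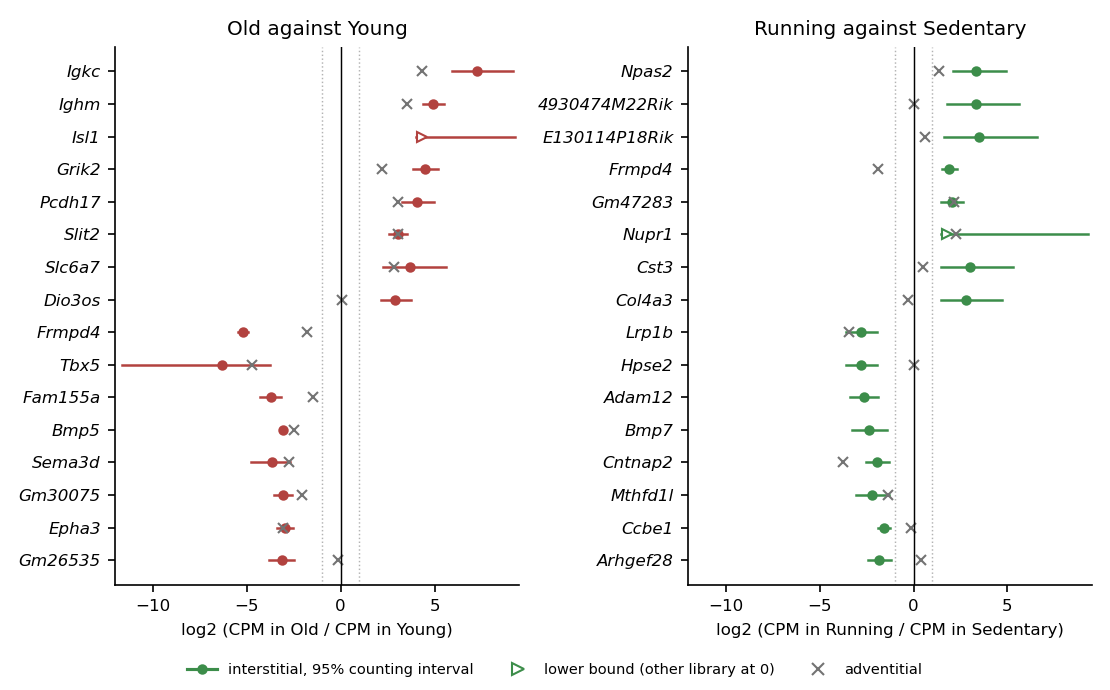
Log2 ratios of CPM in interstitial FAP nuclei (x axis) for the named genes of Old against Young on the left and Running against Sedentary on the right; points are ratios of 2 libraries, lines 95% counting intervals, open triangles lower bounds where the other library had no UMI, crosses the adventitial ratio, and dotted lines a log2 ratio of 1 in size. Old against Young runs from -6.30 for Tbx5 to 7.27 for Igkc, and the crosses of Dio3os and Gm26535 lie near 0.

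Running was set against Sedentary to ask what differed with training. The limb-position genes Tbx5 (32.3 CPM in Running, 0 in Sedentary) and Shox2 (45.4 and 4.79 CPM) also moved with this contrast, whereas Hoxa10 had 20.8 and 28.7 CPM. The Sedentary values of Tbx5 and Shox2 rest on 0 and 1 UMIs. Sedentary adventitial nuclei held 1 Tbx5 UMI, and other nuclei had 3.31 CPM of Tbx5 in Running and 2.44 in Sedentary. Training therefore cannot be told apart from a difference in the tissue taken, and the part of the latter in the ratios was not tested. Of 7706 genes compared, 1234 (16%) were past the fold, 1024 (13.3%) higher and 210 (2.73%) lower in Running, with a median of 0.10. The Sedentary members held 208877 UMIs and the Running members 2597524, without mitochondrial and ribosomal protein genes, so that a gene low in Sedentary reached 50 UMIs more easily than the reverse. TMM scaling shifted the median by more than 0.1, to 0.21, and gave 1208 higher and 150 lower.

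Of 16 basement membrane genes 5 were past the fold, all higher in Running, with a median of 0.31 against 0.10 over all genes, of which 13.3% were past it higher. Col4a3 had 135 CPM in Running and 19.1 in Sedentary, with 56.9 and 73.5 in Old and Young, a log2 ratio of 2.81 between Running and Sedentary (1.45 to 4.70) that rests on 4 Sedentary UMIs. Nid2 had 1.96 (1.14 to 2.92), Col4a5 1.40, Lamb1 1.39 and Col4a6 1.04 (-0.03 to 2.38). Of 6 fibrillar collagens Col3a1 (1.03, interval 0.74 to 1.33) and Col5a3 (1.52, 1.13 to 1.95) were past the fold. None of 3 type VI collagen chains and none of 3 fibril-associated collagens was past the fold, and of the latter 1 was above 0. Col6a6, a rule gene, had 441 against 177 CPM. Of 14 collagen processing genes Loxl2, Bmp1 and Pcolce were higher, and the metalloprotease Adamts12 had 1223 against 522 CPM (1.23).

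Adam12, a metalloprotease of activated mesenchymal cells, had 18.9 CPM in Running against 120 in Sedentary, with 21.7 in Young and 49.6 in Old (log2 ratio -2.67, interval -3.39 to -1.91). Timp3, a metalloprotease inhibitor, had -1.08. Ccbe1, which promotes lymphatic growth, had 184 against 551 CPM (-1.58, interval -1.88 to -1.28). Lrp1b, Hpse2, Bmp7, Cntnap2, Mthfd1l and Arhgef28 were lower with ratios between -2.78 and -1.83, on 15 to 32 Sedentary UMIs. Other nuclei held 26.6 and 96.5 CPM of Lrp1b and 44.5 and 128 CPM of Cntnap2 in the same order. The chemokine Cxcl12 had -1.38 and Lepr -1.56. Of 28 BMP and TGF-beta genes 3 were higher (Bmp1, Bmp5 and Fst) and 2 lower (Bmp7 and Bmpr1b), with a list median of -0.20. Over all genes 13.3% were past the fold higher and 2.73% lower, with a median of 0.10. Bmp5 had 1023 against 493 CPM (1.05, interval 0.77 to 1.35).

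Npas2, a clock transcription factor related to Clock, had 236 CPM in Running and 23.9 in Sedentary, with 27.7 and 19.0 in Old and Young. Its ratio between Running and Sedentary was 3.30 (2.07 to 4.93) and rests on 5 Sedentary UMIs. Arntl, a core clock activator, had 15.5, 11.52, 119 and 23.9 CPM (2.31). Running stood above the other 3 libraries for both. In other nuclei Arntl had 119 CPM in Running and 43.9 in Sedentary, and Npas2 had 21.4 and 15.8. Tef (-1.36), Hlf (-1.25) and Bhlhe40 (-1.31), which are driven by the clock, were lower in Running. Time of day at tissue collection is not given in the sources used here, so training cannot be told apart from it. Of 16 clock genes compared, 2 were past the fold higher, a share near the 13.3% of all genes, and 3 lower, where 2.73% of all genes were, with a median of -0.40.

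Frmpd4 had 954 CPM in Running and 259 in Sedentary (1.88, interval 1.49 to 2.30), and 1 nucleus held 15 of its 54 Sedentary UMIs. Gm47283, annotated on chromosome Y, had a ratio of 2.03, was detected in 62.9% of other Running nuclei as in 68.0% of members, and may share reads with a near-identical copy. The antisense transcript 4930474M22Rik, whose 9830 bases lie wholly inside the rule gene Smoc2, had 3.34 (1.78 to 5.63) on 3 Sedentary UMIs and may share reads with it. E130114P18Rik had 3.51 (1.64 to 6.56) and Cst3, a secreted protease inhibitor, 3.02 (1.46 to 5.31), on 2 and 3 Sedentary UMIs. Nupr1, a stress-response factor, had 129 UMIs in Running and none in Sedentary, at least 1.79 on the log2 scale. Of 16 glycolysis genes 5 were higher in Running (Aldoa, Tpi1, Gapdh, Eno3 and Pdk4), with 1 Sedentary UMI each for Tpi1 and Gapdh. The list median was 0.64, against 0.10 over all genes, of which 13.3% were past the fold higher. Aldoa, the muscle aldolase, had 268 against 105 CPM (1.35), while other nuclei had 500 against 201 CPM, and the myonuclear list stood at 18082 against 13367 CPM in members. The part of fibre RNA in these values was not tested. Of 12 lactylation enzymes Kat8 and Hdac1 were higher, at 2.06 (-0.48 to 7.39) and 1.77 (0.19 to 4.06) on 1 and 3 Sedentary UMIs, a count near the 13.3% of all genes past the fold higher, and 0 of 6 cell cycle arrest genes were past the fold.

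**Figure D5:**
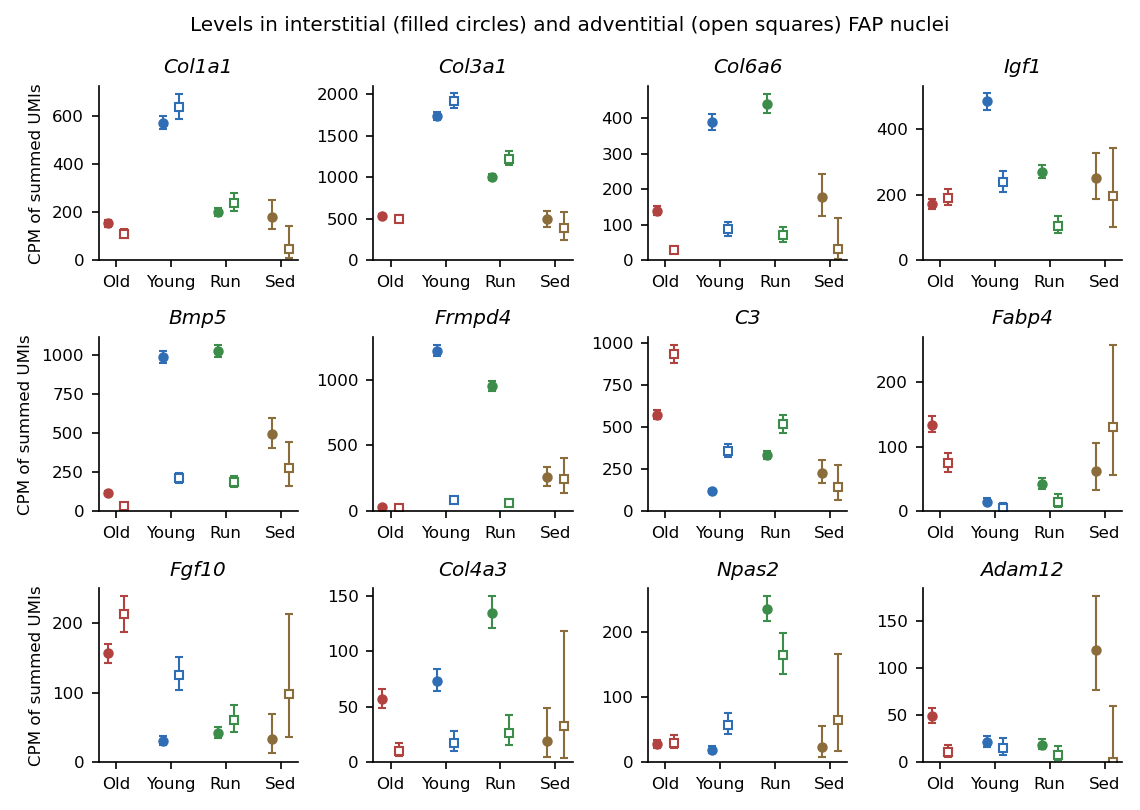
CPM of summed UMIs (y axis, from 0) of 12 genes in the 4 libraries (x axis, where Run is Running and Sed is Sedentary). Filled circles are interstitial and open squares adventitial FAP nuclei, with exact 95% Clopper-Pearson intervals. Bmp5 and Frmpd4 are lowest in Old, C3, Fabp4 and Fgf10 of interstitial nuclei are highest in Old, and Npas2 is highest in Running.

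Members also varied among themselves. At 1000 UMIs per nucleus, the median variance-to-mean ratio over 2940 genes was between 1.10 and 1.13 in the 4 libraries, close to the value of 1 that counting alone gives. The 10 genes that varied most were Gm10800, Ttn, Gpc6, Gsn, Dmd, Neb, Csmd1, Trdn, Pcdh9 and Gm42418. Ttn, Dmd, Neb and Trdn are genes of the muscle fibre, and Ttn had ratios between 21.6 and 34.4. Gm10800 belongs to a family of near-identical genes, so its counts are uncertain. Gsn, gelsolin, an actin-severing protein abundant in FAPs, had ratios of 8.11, 5.15, 6.6 and 5.98, at means of 12.5, 6.12, 7.14 and 6.38 UMIs per nucleus. Gpc6, a glypican of the cell surface, had ratios of 5.49, 12.8, 8.15 and 3.62. Without the members richest in myonuclear UMIs (the top 25% of each library), 1411 of 8964 genes tested were called between the 2 kinds, against 1571 of 10066. Past the fold were then 804 of 9208 genes in the comparison of ages (8.73%, with all members 8.84%) and 967 of 6190 in that of training (15.6%, with all members 16%), so that the shares hardly moved while fewer genes reached the minimum. Such shares do not tell the part of fibre RNA in any single gene.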

How the data were processed

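Gastrocnemius nuclei had been profiled by single-nucleus RNA sequencing. The authors deposited a filtered matrix of raw UMI counts for each library, and their notes name Cell Ranger 6.1.2 for the 10x reads and the mm10 build. The handling of intronic reads is not given in the sources used here. In Python 3.11.15, nuclei were retained at over 200 but below 6000 genes with less than 6% mitochondrial UMIs, which are the study's limits. Doublets and background RNA were not removed. The 10x libraries held between 23390969 and 44454427 UMIs. Of 32285 gene entries, those of 13 mitochondrial and 84 ribosomal protein genes were not used.

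Counts were summed by library and kind of nucleus. The 2 FAP kinds were compared in edgeR 4.0.16 (R 4.3.3) with TMM scaling, its expression filter, library as a block and 3 residual degrees of freedom, at a Benjamini-Hochberg threshold of 0.05. The p-values rest on the spread over 4 libraries of different groups. Groups had 1 library each and no test. Their log2 ratios of CPM carry exact conditional binomial 95% intervals, a gene needed at least 50 UMIs over both libraries and a log2 ratio of at least 1 in size to be past the fold, and a ratio against no UMIs is a bound that allows 3. The edgeR step was tested on simulated data. Coordinates came from GENCODE vM21 (GRCm38), which had a record for 99.6% of gene entries, and promoters from RefSeq.

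Members, gene lists and tests were chosen with earlier results of these data known. Between kinds, up to 10 called genes in each direction were named by fold, among those whose average log2 CPM reached 5 and whose sign was shared by 4 libraries. Between groups, up to 8 in each direction were named by the interval end nearest 0, where members held at least the level of other nuclei. Alternatives were DESeq2 1.42.0, other scaling and filters, thinning, UMI minimums, removal of high doublet scores, each library left out and, added after the data were seen, removal of the members richest in myonuclear UMIs and of 1 immunoglobulin-rich nucleus. Some members of the gene lists are not reported here.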

Additional observations from a re-analysis of the deposited data

Results flagged for a closer look

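Only named and listed genes past the fold in interstitial nuclei were searched, not all genes compared, so no share over all genes is given. In 4 cases among them the ratio between 2 libraries had opposite signs in interstitial and adventitial nuclei, with both counting intervals away from 0. The difference between the 2 kinds was not tested. Frmpd4 had a log2 ratio of 1.88 between Running and Sedentary in interstitial nuclei and -1.90 (-2.77 to -0.95) in adventitial nuclei, the latter from 44 and 15 UMIs. Igfbp5, an insulin-like growth factor-binding protein, had -1.16 in interstitial and 1.12 (0.40 to 1.94) in adventitial nuclei in the same contrast, and 1.47 in other nuclei. Timp3, an inhibitor of metalloproteases, had -1.08 and 1.57 (0.32 to 3.22), with 5 UMIs in Sedentary adventitial nuclei. Anxa3, an annexin, had 1.21 between Old and Young in interstitial and -0.28 (-0.44 to -0.11) in adventitial nuclei, and 0.93 in other nuclei. Sedentary adventitial nuclei numbered 27, so the first 3 rest on few nuclei.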

How the results depend on the processing

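Requiring at least 5 UMIs of the 4 rule genes gave shares of 8.63%, 6.74%, 5.85% and 0.690% in the order Old, Young, Running and Sedentary, and thinning to 1000 UMIs before the rule gave 4.44%, 3.05%, 3.48% and 0.518%. The rule counts UMIs, so a higher minimum or a lower depth leaves fewer nuclei by construction. Between interstitial and adventitial nuclei, 584 genes were called without the library term and 891 of the 5494 tested after thinning, against 1571, and leaving out each library gave between 1041 (without Young) and 1775 (without Sedentary). DESeq2 called 1069 and the absence of a low-count filter gave 1859. Between Old and Young, genes past the fold numbered 1670 with at least 20 UMIs over both libraries, 295 with at least 200 and 432 after thinning, against 908. Between Running and Sedentary these were 2144, 186 and 546, against 1234, so the numbers follow the UMI minimum. No named gene reversed its sign under the alternatives that gave it a value. Fbln7, Gm30075, Plxnc1, Gm8369 and Sema3e were too low to be tested after thinning. Thinning brought Cntnap2 to -0.94, short of the fold, and Mthfd1l to -1.09, and at least 5 rule UMIs brought Lrp1b to -1.61. Fap passed the threshold in 3 alternatives (0.28 with DESeq2, 0.36 without a filter and 0.37 without the highest doublet scores), and the cause was not tested. Between groups, no paired analysis was possible because each group had 1 10x library and the replicate numbers were given in deposition order. The Sedentary library, with 108 members, limits every ratio that uses it.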

Other observations

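Genes that mark limb position in mesenchyme were looked up after the values of Tbx5 and Isl1 had been seen, and are given as values. Tbx4, a T-box factor of the hindlimb, had 55, 58, 52 and 1 UMIs in interstitial nuclei of Old, Young, Running and Sedentary, at 16.7, 19.7, 20 and 4.79 CPM, and 2.18 to 3.02 CPM in other nuclei. Tbx5, a T-box factor of the forelimb, had 1, 71, 84 and 0 UMIs. In Young, 64 members carried a Tbx5 UMI, 48 a Tbx4 UMI and 6 both. In Running these numbers were 72, 45 and 7. Isl1 had 68 UMIs in Old, in 59 members, and none in the other 3 libraries, and in adventitial nuclei 24 UMIs in Old and none elsewhere. The posterior Hox gene Hoxc10 had 51, 79, 42 and 1 UMIs, Hoxc11 35, 16, 13 and 0, and Hoxa10 94, 62, 54 and 6. Pitx1, a hindlimb homeobox factor, had 15, 6, 10 and 0 UMIs. Emx2 had 8, 55, 56 and 0 UMIs and Alx4 3, 40, 18 and 0. Whether the libraries differ in the tissue taken was not tested.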
